A study of Rattus norvegicus with 11 samples.

Results

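Genes of the crypt stem cell compartment and of Wnt signalling were followed in the small intestine of ventilated, brain-dead and vagally stimulated brain-dead rats. The members were 10 genes listed by symbol (Axin2, Lgr5, Ascl2, Sox9, Myc, Ephb2, Ephb3, Efna1, Tcf7l2 and Ctnnb1), and a member was taken from the array where a probe set carried its rat Entrez number. Of the 10, 8 had a probe set among the 11427 gene probe sets, 1 each, and Lgr5 and Sox9 had none and were not analysed here. Each of 11 samples was hybridised to 1 Affymetrix array. Of these, 4 came from brain-dead rats with vagal stimulation (BD_VNS, replicates 1 to 4) and 4 from brain-dead rats without it (BD, replicates 1, 3, 4 and 6), all sampled 6 hours after brain death. The other 3 came from anaesthetised rats ventilated for 6 hours without brain death (NBD, replicates 1, 3 and 4). All are labelled as transgenic, with no gene, strain or age named. NBD samples were grouped by their titles, because their source field speaks of brain death as well. No label says that each array is a separate animal, so the p values measure only the spread between these samples, which may be technical.

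The intestinal epithelium is renewed from stem cells at the base of the crypts, and Wnt signalling keeps these cells dividing. When a Wnt ligand binds its receptors, the complex that destroys beta-catenin is blocked, and beta-catenin enters the nucleus and switches on target genes together with TCF factors. Those targets include brakes on the pathway, growth regulators, and the Eph receptors that hold cells at their place along the crypt.

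Values are log2 levels as deposited, so a difference of 1 is a doubling. No detection calls were given, and levels were not set against each other between genes. The labelled tissue was checked against fixed markers. The enterocyte genes Vil1 and Fabp2, which encode villin and a fatty acid binding protein, stood between 12.37 and 13.82 in every array, and Sis and Cdx2 had no named probe set. The stem cell gene Smoc2 lay between 8.46 and 8.75, with no comparison passing (adjusted p 0.331 to 0.762). In BD 4 and BD 6, 16 pancreatic acinar genes averaged 13.11 and 12.61, against 6.88 to 7.68 in the arrays other than these. The 3' over 5' ratio, a sign of RNA quality taken from control probes at both ends of Gapdh and Actb, was on the log2 scale 1.04, 0.75, 1.03 and 1.10 in BD_VNS 1 to 4, 0.76 to 0.89 in BD and 0.69 to 0.87 in NBD.

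The sequences just before the gene start are shown for the 4 members that passed a test in at least 1 comparison, because Axin2 is the textbook case of a gene that TCF factors drive directly. They are from RefSeq on GRCr8, which held a window for 7 of the 8 measured members, and each gives the 250 bases before the start, 5' to 3' on the gene's strand. Capitals mark a match to 1 of 4 TCF/LEF words (CTTTGAT and CTTTGAA, or else CTTTGTT and CTTTGTA), searched on both strands.
Axin2, chr10:94398535-94398784, plus strand: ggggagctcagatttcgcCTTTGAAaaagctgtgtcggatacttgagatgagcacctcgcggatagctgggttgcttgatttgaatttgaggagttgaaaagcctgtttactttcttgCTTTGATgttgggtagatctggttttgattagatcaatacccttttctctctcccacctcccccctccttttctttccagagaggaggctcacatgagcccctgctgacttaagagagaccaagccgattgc
Ascl2, chr1:207580857-207581106, minus strand: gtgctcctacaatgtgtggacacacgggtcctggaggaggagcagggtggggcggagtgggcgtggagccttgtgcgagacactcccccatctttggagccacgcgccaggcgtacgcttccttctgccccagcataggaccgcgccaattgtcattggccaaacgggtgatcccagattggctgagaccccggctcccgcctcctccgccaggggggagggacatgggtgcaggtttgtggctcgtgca
Ephb2, chr5:154360425-154360674, minus strand: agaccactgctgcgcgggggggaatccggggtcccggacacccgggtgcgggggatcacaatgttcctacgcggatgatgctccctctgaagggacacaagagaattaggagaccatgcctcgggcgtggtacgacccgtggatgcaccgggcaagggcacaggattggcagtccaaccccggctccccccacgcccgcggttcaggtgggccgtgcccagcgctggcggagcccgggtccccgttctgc
Efna1, chr2:176986822-176987071, minus strand: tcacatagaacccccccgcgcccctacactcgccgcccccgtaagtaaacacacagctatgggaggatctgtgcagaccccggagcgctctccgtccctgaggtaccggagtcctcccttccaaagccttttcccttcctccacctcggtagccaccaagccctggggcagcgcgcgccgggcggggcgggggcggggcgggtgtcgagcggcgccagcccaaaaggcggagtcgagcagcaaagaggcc
The Axin2 window held 2 matches on the gene's own strand, CTTTGAA from 232 to 226 bases and CTTTGAT from 132 to 126 bases before the start. Of 33469 windows of that length in the table, 14.9% held at least 1 of the words and 1.73% held 2 or more matches. None of the other 6 member windows held one, which says only that these letters are not in these windows. The start is the one the RefSeq table gives for each gene, which for Axin2, Ascl2, Ephb2, Efna1 and Ctnnb1 lies inside the gene's annotated span, and other starts were not searched.

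**Figure D1:**
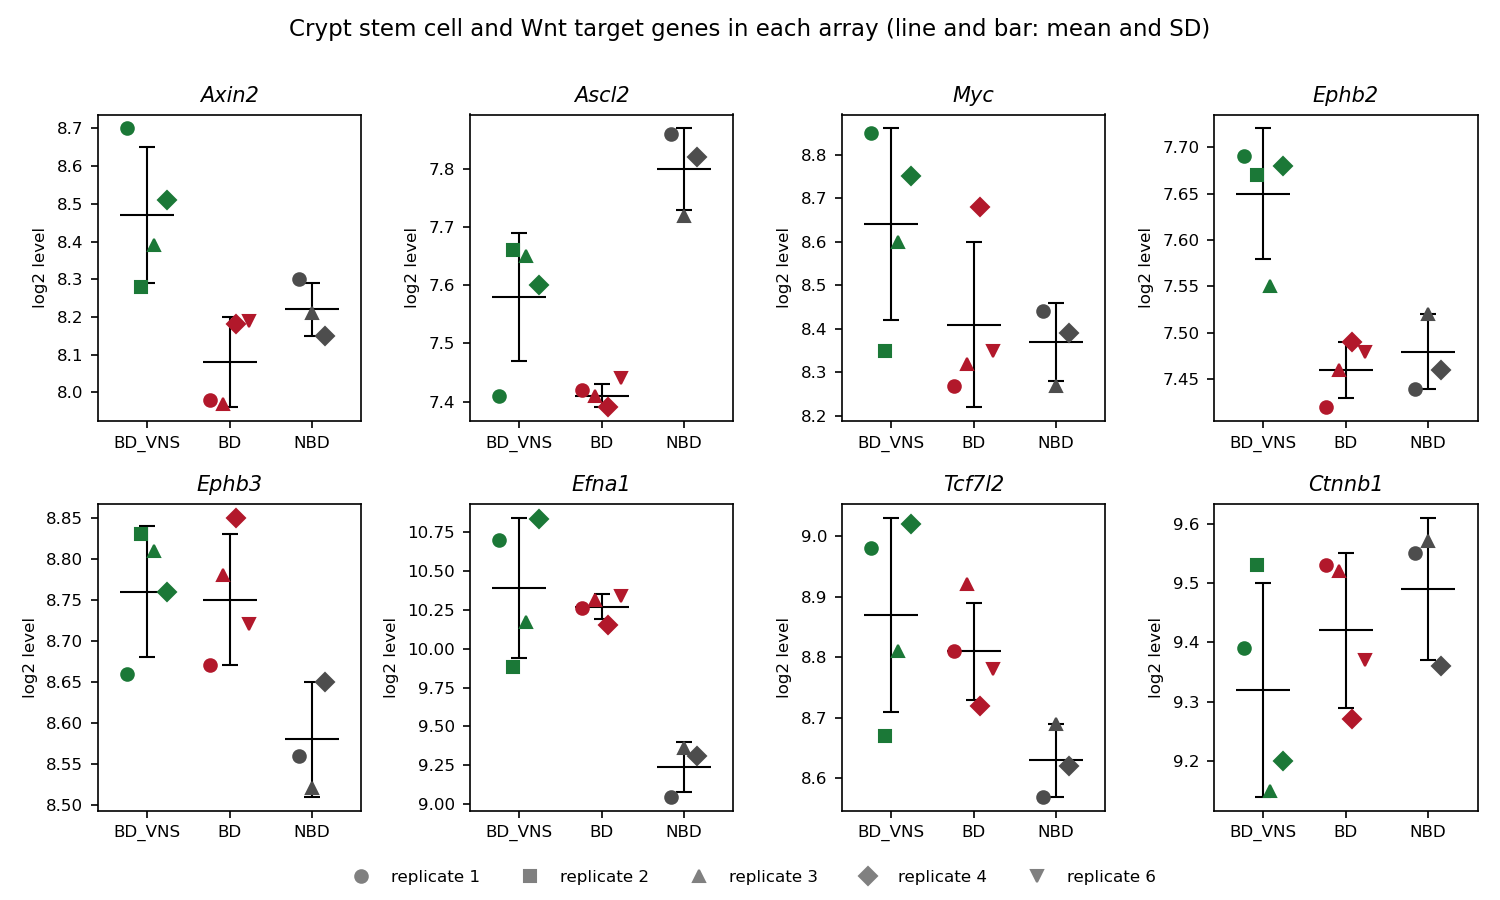
Log2 level (vertical axis, own scale per gene) of the 8 measured genes in each array, with points for single arrays, their shape giving the replicate number, and a black line and bar for the group mean and SD. The 8 brain-dead arrays of both kinds lie between 9.88 and 10.83 for Efna1, above the NBD arrays, and Ascl2 in the 4 BD arrays lies between 7.39 and 7.44, below all NBD arrays.

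The comparison of BD with NBD asked what brain death changed. Efna1, an ephrin ligand tethered to the cell surface, was about 2-fold higher in BD, and Ascl2, a transcription factor that in mice maintains the stem cell state, was 1.3-fold lower. The other 6 measured members did not pass. So 1 of 8 rose and 1 of 8 fell, in a comparison where 5.73% of all 11427 genes passed, 2.1% upward and 3.63% downward. The arrays of the groups did not overlap for 4 of the 8, against 20.4% of all genes. The median log2 difference over the 8 members was 0.01, and it was -0.01 over all genes. Of the 8, 4 differences were above 0, against 47% of all genes, and 4 had an unadjusted limma p under 0.05, against 18.8%.

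Efna1 (Entrez Gene 94268, chromosome 2, 176979434 to 176988675 on GRCr8) was at 10.26, 10.31, 10.15 and 10.34 in BD 1, 3, 4 and 6, against 9.05, 9.36 and 9.31 in NBD 1, 3 and 4. Every BD array lay above every NBD array. The means were 10.27 ± 0.08 in BD (SD, n = 4) and 9.24 ± 0.16 in NBD (SD, n = 3). The log2 difference was 1.02 ± 0.19 (SE; 95% interval 0.62 to 1.43; limma, adjusted p = 0.00709). It was 1.04 without BD 4 and BD 6 (limma, adjusted p = 0.0479) and 0.88 with the 3' over 5' ratio in the model (limma, adjusted p = 0.00423). The call held in all 20 alternative fits, with an adjusted p of 0.000411 to 0.0479.

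Ascl2 (Entrez Gene 24209, chromosome 1, 207578447 to 207665126) was at 7.42, 7.41, 7.39 and 7.44 in BD 1, 3, 4 and 6, against 7.86, 7.72 and 7.82 in NBD 1, 3 and 4. The 4 BD arrays lay within a narrow band below all 3 NBD arrays. The means were 7.41 ± 0.02 in BD (SD, n = 4) and 7.80 ± 0.07 in NBD (SD, n = 3), a log2 difference of -0.38 ± 0.06 (SE; 95% interval -0.51 to -0.25; limma, adjusted p = 0.00306). The difference was -0.38 without BD 4 and BD 6 (limma, adjusted p = 0.0295), and the call held in all 19 alternative fits that kept the probe set (adjusted p 0.000779 to 0.0319). In tissue of many cell types, fewer cells of a type and less RNA per cell cannot be told apart. Beside it, of 15 enterocyte markers 5 fell and 0 rose, while of 9 general epithelial markers 0 passed, with mean levels of 12.15 to 12.47 in BD and 12.35 to 12.42 in NBD. Of 11 smooth muscle markers 3 rose and 0 fell, with a median log2 difference of 0.35, and of 16 fibroblast and pericryptal stroma markers 3 rose and 0 fell, with mean levels of 9.57 to 9.71 in BD and 9.30 to 9.45 in NBD. Of 6 Paneth cell markers 1 rose, Reg3g, with a list median of 0.02 and mean levels of 8.89 to 9.27 in BD and 8.52 to 8.88 in NBD. Of 8 endothelial markers 1 rose, with mean levels of 7.75 to 7.81 in BD and 7.65 to 7.70 in NBD. Goblet cell, macrophage and T cell markers had 0 that passed. The part of these cell types in the Ascl2 and Efna1 results was not tested.

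Axin2, a scaffold of the destruction complex that Wnt signalling induces and that feeds back on it, did not pass. It was at 7.98, 7.97, 8.18 and 8.19 in BD 1, 3, 4 and 6, against 8.30, 8.21 and 8.15 in NBD 1, 3 and 4, so the groups overlapped. Its log2 difference was -0.14 (95% interval -0.34 to 0.06; limma, adjusted p = 0.445). Myc, a transcription factor of cell growth, was at 8.27, 8.32, 8.68 and 8.35 in BD, against 8.44, 8.27 and 8.39 in NBD (0.04, 95% interval -0.22 to 0.30; limma, adjusted p = 0.916). The highest of these Myc values came from BD 4, and without BD 4 and BD 6 the difference was -0.07.

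The receptors Ephb2 and Ephb3, whose graded levels in mice set the position of cells along the crypt, did not pass. Ephb2 was at 7.42 to 7.49 in BD and 7.44 to 7.52 in NBD (-0.02, 95% interval -0.11 to 0.08; limma, adjusted p = 0.91). Ephb3 was at 8.67, 8.78, 8.85 and 8.72 in BD, against 8.56, 8.52 and 8.65 in NBD. Its groups did not overlap, yet the difference of 0.18 (95% interval 0.05 to 0.30) missed the threshold after adjustment (limma, adjusted p = 0.107). Of the nuclear factors, Tcf7l2, the main TCF factor of the intestinal epithelium, was at 8.81, 8.92, 8.72 and 8.78 in BD, against 8.57, 8.69 and 8.62 in NBD. These groups did not overlap either (0.18, 95% interval 0.01 to 0.35; limma, adjusted p = 0.239). Ctnnb1, which encodes beta-catenin and is governed mainly at the level of the protein, was at 9.27 to 9.53 in BD and 9.36 to 9.57 in NBD (-0.07, 95% interval -0.28 to 0.15; limma, adjusted p = 0.786).

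**Figure D2:**
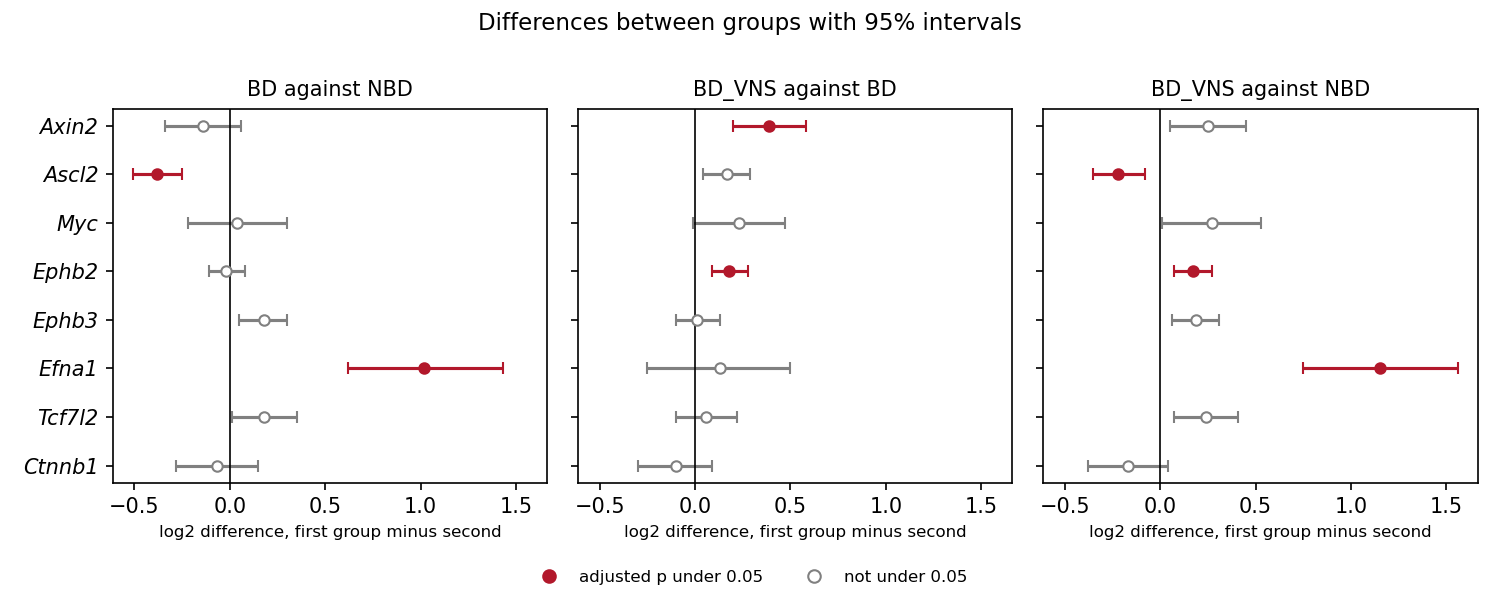
Log2 difference between groups (horizontal axis, first group minus second) for the 8 measured genes in the 3 comparisons, with bars for the 95% interval of the limma fit and filled red points where the adjusted p was under 0.05. In BD against NBD the Efna1 interval runs from 0.62 to 1.43 and that of Ascl2 from -0.51 to -0.25, and in BD_VNS against BD the passing genes are Axin2 and Ephb2.

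The comparison of BD_VNS with BD asked what vagal stimulation changed in brain-dead rats. Axin2 was 1.31-fold higher and Ephb2 1.14-fold higher with stimulation, and the other 6 members did not pass. So 2 of 8 rose and 0 fell, in a comparison where 5.56% of all genes passed, 1.9% upward and 3.66% downward. These 2 were also the members whose groups did not overlap, against 13.1% of all genes. The median log2 difference was 0.15 over the 8 members and 0.03 over all genes. Of the 8, 7 differences were above 0, against 62.5% of all genes, and 3 had an unadjusted limma p under 0.05, against 22.6%.

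Axin2 (Entrez Gene 29134, chromosome 10, 94393379 to 94426579) was at 8.70, 8.28, 8.39 and 8.51 in BD_VNS 1 to 4, against 7.98, 7.97, 8.18 and 8.19 in BD 1, 3, 4 and 6. Every BD_VNS array lay above every BD array, with BD_VNS 2 the closest. The means were 8.47 ± 0.18 in BD_VNS and 8.08 ± 0.12 in BD (SD, n = 4 each), a log2 difference of 0.39 ± 0.09 (SE; 95% interval 0.20 to 0.58; limma, adjusted p = 0.0234). Without BD 4 and BD 6 it was 0.49 (limma, adjusted p = 0.0435). The call was lost without BD_VNS 4 (0.38, limma adjusted p = 0.0699), BD 1 (0.36, adjusted p = 0.0552) or BD 3 (0.35, adjusted p = 0.0596), with the 2 groups fitted alone (0.39, adjusted p = 0.0554), and when the end ratio was added to the model (0.30, adjusted p = 0.0836), in a range of 0.00686 to 0.0836 over 20 alternative fits.

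Ephb2 (Entrez Gene 313633, chromosome 5, 154179065 to 154360459) was at 7.69, 7.67, 7.55 and 7.68 in BD_VNS 1 to 4, against 7.42, 7.46, 7.49 and 7.48 in BD 1, 3, 4 and 6. BD_VNS 3 stood below the other stimulated arrays but above all BD arrays. The means were 7.65 ± 0.07 in BD_VNS and 7.46 ± 0.03 in BD (SD, n = 4 each), a log2 difference of 0.18 ± 0.04 (SE; 95% interval 0.09 to 0.28; limma, adjusted p = 0.0264). The difference was 0.21 without BD 4 and BD 6 (limma, adjusted p = 0.0907) and 0.19 with the end ratio in the model (limma, adjusted p = 0.0604), so the call was lost in both fits while the size was kept. It was also lost without BD_VNS 1 (0.17, limma adjusted p = 0.0682), BD_VNS 4 (0.17, 0.0855), BD 1 (0.17, 0.0621), BD 3 (0.18, 0.0596) or BD 6 (0.19, 0.0642), and the adjusted p ran from 0.0159 to 0.127 over 19 alternative fits.

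Ascl2 was at 7.41, 7.66, 7.65 and 7.60 in BD_VNS 1 to 4, with the BD arrays at 7.39 to 7.44. The arrays BD_VNS 2, 3 and 4 lay above all BD arrays and BD_VNS 1 lay among them. The difference of 0.17 (95% interval 0.04 to 0.29) did not pass (limma, adjusted p = 0.103), and without BD_VNS 1 it was 0.22 (limma, adjusted p = 0.029). Efna1 was at 10.70, 9.88, 10.17 and 10.83 in BD_VNS 1 to 4, a spread of 0.45 by SD against 0.08 in BD. The group means of 10.39 in BD_VNS and 10.27 in BD differed by 0.13 (95% interval -0.25 to 0.50; limma, adjusted p = 0.705). Myc was at 8.85, 8.35, 8.60 and 8.75 in BD_VNS 1 to 4, and its difference from BD of 0.23 (95% interval -0.01 to 0.47) did not pass (limma, adjusted p = 0.237). Ephb3 (0.01, 95% interval -0.10 to 0.13), Tcf7l2 (0.06, -0.10 to 0.22) and Ctnnb1 (-0.10, -0.30 to 0.09) did not pass either, with limma adjusted p of 0.913, 0.666 and 0.534.

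The stimulated arrays did not behave alike, and BD_VNS 2 stood at one end for several members. It was the lowest of the 4 for Axin2 (8.28), Myc (8.35), Efna1 (9.88) and Tcf7l2 (8.67) and the highest for Ctnnb1 (9.53), Ephb3 (8.83) and Ascl2 (7.66). BD_VNS 2 was also the stimulated array with a 3' over 5' ratio of 0.75, within the range of the BD and NBD arrays. With that ratio as a covariate the difference from BD was 0.08 for Myc, -0.13 for Efna1 and -0.03 for Tcf7l2, and none passed. In BD_VNS 1, 3 and 4 the ratio was 1.03 to 1.10, above every BD and NBD array. Wherever a BD_VNS call was lost in the fit with the ratio, the ratio and stimulation cannot be fully told apart. Macrophage and stroma genes also moved in this comparison: of 13 macrophage markers 10 fell and 0 rose, with mean levels of 7.76 to 8.32 in BD_VNS and 8.60 to 8.81 in BD, and of 16 fibroblast and pericryptal stroma markers 9 fell and 0 rose, with means of 8.91 to 9.28 in BD_VNS and 9.57 to 9.71 in BD. Of 7 goblet cell markers 3 fell and 0 rose, of 15 enterocyte markers 4 rose and 0 fell, and of 9 epithelial markers 0 rose and 1 fell, with mean levels of 12.40 to 12.42 in BD_VNS and 12.15 to 12.47 in BD. Of 8 endothelial markers 2 fell and 0 rose, with means of 7.54 to 7.69 in BD_VNS and 7.75 to 7.81 in BD. Of 11 T cell markers 1 fell and 0 rose, and of the smooth muscle and Paneth cell markers 0 passed. The part of these cell types in the Axin2 and Ephb2 results was not tested.

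**Figure D3:**
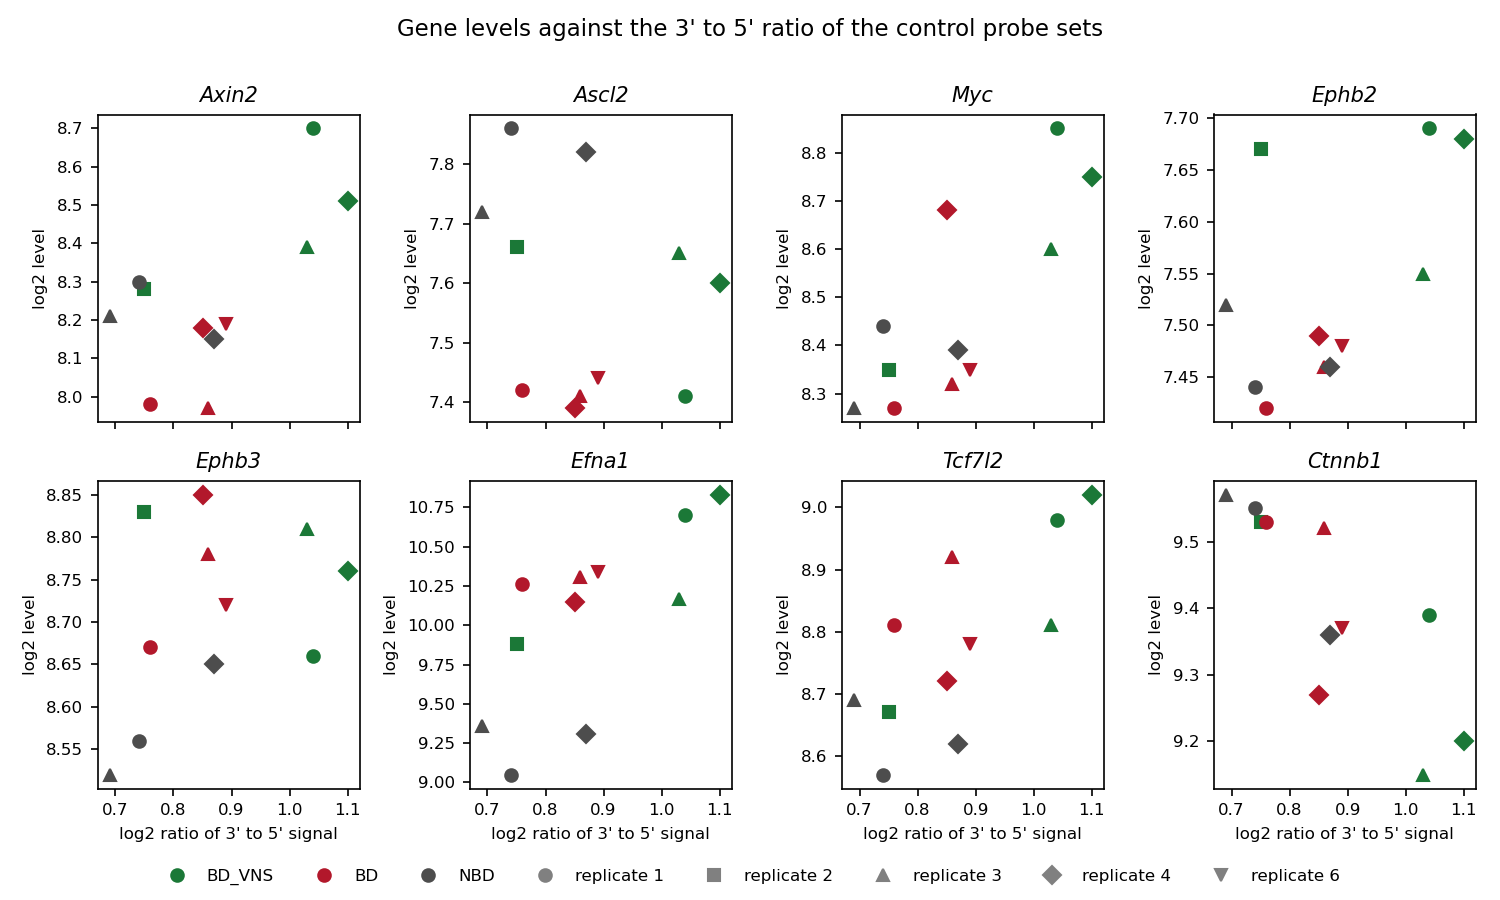
Log2 level of the 8 measured genes (vertical axis, own scale per gene) against the log2 3' over 5' ratio of control probes for Gapdh and Actb (horizontal axis), 1 point per array, with colour for the group and shape for the replicate number. BD_VNS 1, 3 and 4 lie at ratios of 1.03 to 1.10 and BD_VNS 2 at 0.75, among the BD and NBD arrays.

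The comparison of BD_VNS with NBD set the stimulated brain-dead rats beside the ventilated controls. It shares its arrays with both comparisons above, so its values are given side by side with them and add no independent test. Efna1 was 2.22-fold higher in BD_VNS, Ephb2 1.12-fold higher and Ascl2 1.16-fold lower, so 2 of 8 rose and 1 fell, while 8.44% of all genes passed, 3.64% upward and 4.8% downward. Markers of other cell types moved here too: of 13 macrophage markers 8 fell (list median -0.61), of 7 goblet cell markers 3 fell (-0.58), of 16 fibroblast and pericryptal stroma markers 5 fell (-0.28), and of 11 smooth muscle markers 3 rose (0.31). Of 8 endothelial markers 1 fell, of 11 T cell markers 1 fell, and of 9 epithelial markers 1 rose and 1 fell. Enterocyte and Paneth cell markers had 0 that passed. The part of these cell types in these results was not tested. The groups did not overlap for 4 of the 8, against 20.9% of all genes, and the median log2 difference was 0.22 over the members and 0.01 over all genes. Differences above 0 numbered 6 of the 8, against 56.3% of all genes, and an unadjusted limma p under 0.05 was found for 7, against 23%.

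Efna1 averaged 10.39 ± 0.45 in BD_VNS (SD, n = 4) and 9.24 ± 0.16 in NBD (SD, n = 3), with all stimulated arrays above all controls. The log2 difference was 1.15 ± 0.19 (SE; 95% interval 0.75 to 1.56; limma, adjusted p = 0.00354). It was 0.75 with the end ratio in the model, where the call was lost (limma, adjusted p = 0.051), and 0.75 to 1.33 over 20 alternative fits. Ascl2 averaged 7.58 ± 0.11 in BD_VNS (SD, n = 4) and 7.80 ± 0.07 in NBD (SD, n = 3), a difference of -0.22 (limma, adjusted p = 0.0468). This call held in 4 of 19 alternative fits. It was lost with the end ratio in the model, without BD 4 and BD 6, and without any 1 array other than BD_VNS 2, with differences of -0.26 to -0.16, and the adjusted p over the 19 fits ran from 0.0259 to 0.241. Ephb2 averaged 7.65 ± 0.07 in BD_VNS (SD, n = 4) and 7.48 ± 0.04 in NBD (SD, n = 3), a difference of 0.17 (limma, adjusted p = 0.0396). Its call held in 7 of 19 alternative fits and was lost with the end ratio in the model, without BD 4 and BD 6, and without BD_VNS 1, BD_VNS 4, BD 3, BD 6 or any NBD array, with differences of 0.15 to 0.20 and an adjusted p of 0.0177 to 0.15.

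The other 5 members did not pass against NBD. The difference was 0.25 for Axin2 (95% interval 0.05 to 0.45), 0.27 for Myc (0.01 to 0.53), 0.19 for Ephb3 (0.06 to 0.31), 0.24 for Tcf7l2 (0.07 to 0.41) and -0.17 for Ctnnb1 (-0.38 to 0.04), with limma adjusted p of 0.127, 0.198, 0.0674, 0.0839 and 0.34. Some of these depended on single stimulated arrays. Without BD_VNS 2, Axin2 (0.31, limma adjusted p = 0.0364), Myc (0.37, 0.0386) and Tcf7l2 (0.31, 0.0121) passed, and without BD_VNS 1, Ephb3 passed (0.23, 0.0429). The removal of BD_VNS 2 also raised the genes passing from 965 to 1638 over all genes. With the end ratio in the model the differences were 0.12 for Axin2, 0.04 for Myc, 0.11 for Tcf7l2 and 0.19 for Ephb3. None of these passed (limma, adjusted p = 0.62, 0.911, 0.559 and 0.208).

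The order of the group means differed between the members. Axin2 was highest in BD_VNS (8.47), then NBD (8.22), then BD (8.08), and neighbouring groups in that order overlapped. Ascl2 was highest in NBD (7.80), then BD_VNS (7.58), then BD (7.41), with NBD clear of both and BD_VNS and BD overlapping in 1 array. Ephb2 was highest in BD_VNS (7.65), clear of NBD (7.48) and BD (7.46), which overlapped. Efna1 was highest in BD_VNS (10.39) and BD (10.27), which overlapped, and both were clear of NBD (9.24). Ephb3 had means of 8.76 in BD_VNS, 8.75 in BD and 8.58 in NBD, where BD_VNS and BD overlapped and NBD lay below both. Myc, Tcf7l2 and Ctnnb1 had group means within 0.27 log2 units of each other.

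The rest of the pathway was read from 12 lists of other genes. Each list count below is to be read beside the share over all genes. In BD against NBD, BD_VNS against BD and BD_VNS against NBD, 5.73%, 5.56% and 8.44% of all genes passed. Upward these shares were 2.1%, 1.9% and 3.64%, and downward 3.63%, 3.66% and 4.8%. An unadjusted limma p under 0.05 was found for 18.8%, 22.6% and 23% of all genes. Where a call was lost in an alternative fit, the arrays whose removal ended it are named, as is the fit with the 3' over 5' ratio (the end ratio) where that ended it, and "up to" gives the highest adjusted p over that call's alternative fits. Calls that ended with another scaling or variance model are named in the closing section. Losses with the 2 groups alone or the replicate block enter the counts only. Wnt16, Fzd2, Dkk2, Csnk1e, Bmp5 and Nog lay among the lowest 25% of probe sets by mean level. The fits without the lowest 25% or 50% therefore did not test them, and their signal over background could not be judged. Upstream, 14 Wnt ligands, secretion factors and R-spondins were measured, and 1 fell in each comparison, Wnt16, a Wnt ligand. It averaged 6.67 in BD_VNS, 6.90 in BD and 7.27 in NBD, with no overlap between any pair of groups. Its log2 difference was -0.36 ± 0.06 in BD against NBD (SE; limma, adjusted p = 0.00471), -0.23 ± 0.06 in BD_VNS against BD (adjusted p = 0.0356) and -0.59 ± 0.06 in BD_VNS against NBD (adjusted p = 0.00022). The call held in all 18 alternative fits that kept the probe set for BD against NBD and for BD_VNS against NBD. For BD_VNS against BD it held in 7 of 18 and was lost with the end ratio in the model and without BD_VNS 1, BD_VNS 3, BD_VNS 4, BD 1, BD 3, BD 6 or NBD 4 (adjusted p up to 0.11 over the 18).

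Of 9 Wnt receptors, 1 rose and 1 fell in BD against NBD, 0 passed in BD_VNS against BD, where 1 had an unadjusted limma p under 0.05, and 2 rose in BD_VNS against NBD. The receptor Fzd1 was 0.21 higher in BD and 0.29 higher in BD_VNS than in NBD (limma, adjusted p = 0.0297 and 0.00503), and Fzd2 was 0.25 higher in BD_VNS than in NBD (adjusted p = 0.0186). The co-receptor Lrp5 was 0.19 lower in BD than in NBD (limma, adjusted p = 0.0297), and its difference of 0.15 between BD_VNS and BD did not pass (adjusted p = 0.0575). Of these calls, Fzd1 in BD_VNS against NBD held in all 20 alternative fits. The BD against NBD calls of Fzd1 and Lrp5 were lost without BD 4 and BD 6 and without BD 6 or any 1 NBD array (adjusted p up to 0.142 and 0.129), Fzd1 also without BD 3 and Lrp5 also without BD 1 or BD 4. The Fzd2 call was lost with the end ratio in the model and without BD_VNS 4, NBD 3 or NBD 4 (up to 0.17).

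Of 13 antagonists, 1 rose in BD against NBD, 1 fell in BD_VNS against BD, and 1 rose and 1 fell in BD_VNS against NBD. Dkk2, a secreted inhibitor of the Dickkopf family, rose by 0.38 ± 0.06 in BD against NBD (SE; limma, adjusted p = 0.00258), at 6.63, 6.84, 6.58 and 6.60 in BD 1, 3, 4 and 6 and 6.24 to 6.33 in NBD. That call held in all 18 alternative fits that kept the probe set, which lay among the lowest 25% by mean level. In BD_VNS against NBD Dkk2 was 0.22 higher (limma, adjusted p = 0.0422), a call kept in 6 of 18 fits and lost with the end ratio in the model and without BD_VNS 1, BD_VNS 3, BD_VNS 4, BD 1, BD 6 or any NBD array (up to 0.189). Frzb, a secreted frizzled-related protein that binds Wnt ligands, fell by 0.36 in BD_VNS against BD (limma, adjusted p = 0.0249) and by 0.55 in BD_VNS against NBD (adjusted p = 0.0032). The first of these was lost without BD_VNS 1, BD_VNS 3, BD_VNS 4, BD 1, BD 3 or BD 6 and without BD 4 and BD 6 together, and both calls were lost with the end ratio in the model (up to 0.0873 for the first and 0.0551 for the second). Beside it, the fibroblast and pericryptal stroma markers were lower in BD_VNS as given above, and their part in the Frzb result was not tested.

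In the destruction complex and Dishevelled list of 18 genes, 1 rose in BD against NBD, 0 passed in BD_VNS against BD, where 3 had an unadjusted limma p under 0.05, and 2 rose and 2 fell in BD_VNS against NBD. The Dishevelled-binding Dact1 was 0.21 higher in BD and 0.23 higher in BD_VNS than in NBD (limma, adjusted p = 0.025 and 0.0128). Fbxw11, which tags beta-catenin for breakdown, was 0.22 higher and the kinase gene Csnk1e was 0.18 lower in BD_VNS than in NBD (limma, adjusted p = 0.0174 and 0.0202). With the end ratio in the model 0 of the 18 rose and 0 fell in BD_VNS against NBD. Each of the named calls was also lost without at least 1 array. For Dact1 these were BD 3, BD 6, BD 4 and BD 6 together, or any NBD array in BD against NBD, and NBD 1 or NBD 4 in BD_VNS against NBD (adjusted p up to 0.101 and 0.0722). For Fbxw11 and Csnk1e they were BD_VNS 4, NBD 1 or NBD 4 (up to 0.19 and 0.104).

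Among 24 TCF factors and beta-catenin cofactors, 2 fell in BD against NBD, 2 rose in BD_VNS against BD, and 2 rose and 1 fell in BD_VNS against NBD. The list median was -0.04, 0.10 and 0.01 in these comparisons, beside -0.01, 0.03 and 0.01 over all genes. Cdx1, a homeobox factor of intestinal identity that is also a Wnt target, was at 8.59, 8.76, 8.58 and 8.44 in BD_VNS 1 to 4 and 8.55, 8.57, 8.49 and 8.44 in BD 1, 3, 4 and 6, against 9.0 to 9.02 in NBD. All 8 brain-dead arrays lay below the 3 controls. Its difference was -0.50 ± 0.06 in BD and -0.42 ± 0.06 in BD_VNS against NBD (SE; limma, adjusted p = 0.000964 and 0.00291), and both calls held in all 20 alternative fits. Crebbp, a histone acetyltransferase, fell by 0.17 in BD against NBD (limma, adjusted p = 0.0297) and was 0.15 higher in BD_VNS than in BD (adjusted p = 0.0366), and Bcl9l, a beta-catenin cofactor, was 0.21 higher in BD_VNS than in BD (adjusted p = 0.0408). The Crebbp call in BD against NBD held in 13 of 20 alternative fits, and was lost without BD 4 and BD 6 and without BD 3, BD 6 or any NBD array (up to 0.147). The Crebbp and Bcl9l calls in BD_VNS against BD held in 6 of 20 alternative fits each, and both were lost with the end ratio in the model, without BD 4 and BD 6, and without BD_VNS 1, BD_VNS 4, BD 1, BD 3, BD 6 or any NBD array (up to 0.173 and 0.124), Crebbp also without BD 4 and Bcl9l also without BD_VNS 3. Cdh1, the adhesion partner of beta-catenin at the membrane, was 0.23 higher and the corepressor gene Tle5 0.19 higher in BD_VNS than in NBD (limma, adjusted p = 0.0146 and 0.0423). Both were lost with the end ratio in the model. Cdh1 also lost its call without NBD 1, and Tle5 kept its call in 8 of 20 fits and lost it without BD_VNS 1, BD_VNS 2, BD_VNS 4, BD 1, BD 6 or any NBD array (up to 0.171 and 0.133).

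**Figure D4:**
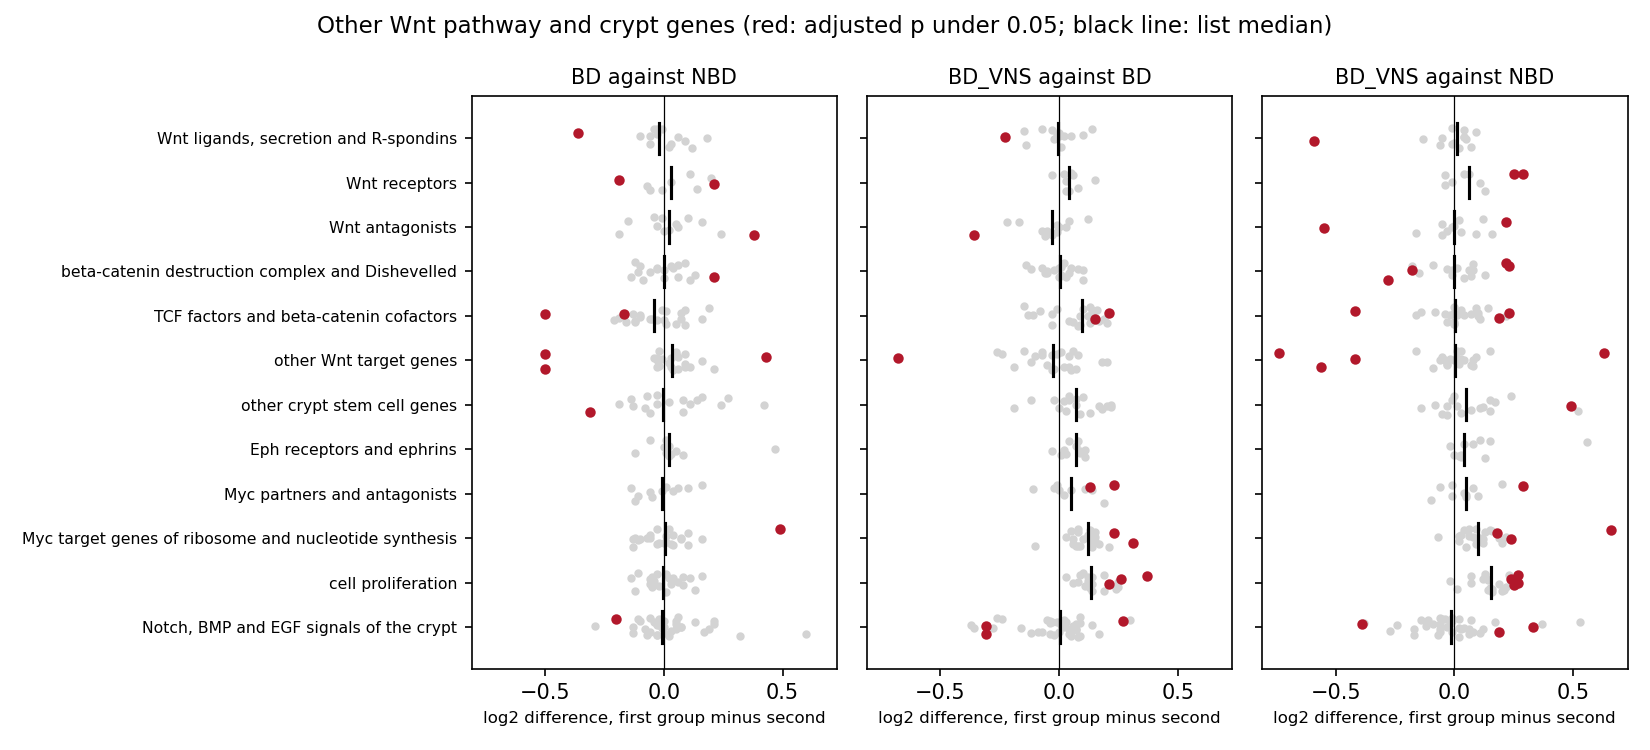
Log2 difference (horizontal axis, first group minus second) of each measured gene in 12 lists of other pathway and crypt genes, 1 panel per comparison, with red points for an adjusted p under 0.05 and a black line for the list median. The median of 22 proliferation genes is 0.00 for BD minus NBD, 0.14 for BD_VNS minus BD and 0.15 for BD_VNS minus NBD.

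Other Wnt targets did not move one way. Of 24 measured, 1 rose and 2 fell in BD against NBD, 1 fell in BD_VNS against BD, and 1 rose and 3 fell in BD_VNS against NBD, with Cdx1 counted here too. Ccnd1, which encodes cyclin D1 of the entry into the cell cycle, was at 9.96, 9.63, 9.70 and 9.81 in BD_VNS 1 to 4 and 9.55, 9.65, 9.63 and 9.48 in BD 1, 3, 4 and 6, against 9.21, 9.16 and 9.07 in NBD 1, 3 and 4. It was 0.43 ± 0.07 higher in BD and 0.63 ± 0.07 higher in BD_VNS than in NBD (SE; limma, adjusted p = 0.00594 and 0.000596). Jun, a subunit of the AP-1 transcription factor, went the other way, at 8.62, 8.64, 8.72 and 8.99 in BD_VNS and 8.89 to 9.08 in BD, against 9.55, 9.41 and 9.49 in NBD. It was 0.50 lower in BD and 0.74 lower in BD_VNS than in NBD (limma, adjusted p = 0.00396 and 0.00036). The 4 calls of Ccnd1 and Jun held in all 20 alternative fits. The gene that fell in BD_VNS against BD was Mmp2, a matrix protease of stromal cells (-0.68 ± 0.14, SE; limma, adjusted p = 0.0186), and it did not pass without BD 4 and BD 6 or with the ratio as a covariate (up to 0.0784). Fibroblast and pericryptal stroma markers were lower in BD_VNS, as given above, and their part in the Mmp2 result was not tested.

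Of 18 other crypt stem cell genes, 1 fell in BD against NBD and 1 rose in BD_VNS against NBD. In BD_VNS against BD 0 passed and 6 had an unadjusted limma p under 0.05, against 22.6% of all genes. Kcne3, a potassium channel subunit of crypt cells, fell by 0.31 in BD against NBD (limma, adjusted p = 0.00645), and its difference of 0.17 between BD_VNS and BD did not pass (adjusted p = 0.0724). The BD against NBD call was lost without BD 4 and BD 6 (up to 0.0638). Hopx, a homeodomain gene used in mice as a marker of slowly cycling crypt cells, was 0.49 higher in BD_VNS than in NBD (limma, adjusted p = 0.00812), and this call was lost with the ratio as a covariate (up to 0.107).

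Of 11 other Eph receptors and ephrins, 0 passed in any comparison. In the order brain death, stimulation, and both against the ventilated controls, 2, 2 and 3 had an unadjusted limma p under 0.05. The shares over all genes were 18.8%, 22.6% and 23%. Efnb1, a ligand of Ephb2 and Ephb3, changed by 0.00, 0.09 and 0.08 (limma, adjusted p = 0.978, 0.355 and 0.444), and Epha4, which can bind ephrins of both classes, by 0.01, 0.02 and 0.03 (adjusted p = 0.958, 0.842 and 0.818); these partners of the members were picked after the lists had been computed. The smallest p in the list belonged to Efnb3 in the first and the second comparison (-0.12 and 0.11; limma, adjusted p = 0.1 and 0.0776) and to Ephb6 in the third (0.56, adjusted p = 0.135).

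Of 11 Myc partners and antagonists, 0 passed in BD against NBD, where 2 had an unadjusted limma p under 0.05, 2 rose in BD_VNS against BD, where 5.56% of all genes passed, and 1 rose in BD_VNS against NBD, where 8.44% did. Mycl, a relative of Myc, was 0.23 higher and the ubiquitin ligase gene Huwe1 0.13 higher in BD_VNS than in BD (limma, adjusted p = 0.0174 and 0.0363), and Mnt, a Max-binding repressor, was 0.29 higher in BD_VNS than in NBD (adjusted p = 0.0208). Both calls in BD_VNS against BD were lost without BD 4 and BD 6 and without BD 6, Mycl holding in 17 and Huwe1 in 6 of 20 alternative fits (up to 0.103 and 0.175). Huwe1 and Mnt were lost with the end ratio in the model. Huwe1 was lost as well without BD_VNS 1, BD_VNS 3, BD_VNS 4, BD 1, BD 3, BD 4, NBD 1 or NBD 3, and Mnt without BD_VNS 4, NBD 1 or NBD 3 (up to 0.235). In BD against NBD the smallest p was that of Mycbp2, a very large ubiquitin ligase (0.16; limma, adjusted p = 0.0981), which passed in 1 of 20 alternative fits.

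Of 24 Myc targets, mostly of ribosome and nucleotide synthesis, 1 rose in BD against NBD and 2 rose in BD_VNS against BD. The 1 that rose in BD against NBD was Tfrc, which belongs to neither kind of synthesis. Against NBD, BD_VNS had 3 that rose, and 0 fell in these 3 comparisons. The list median was 0.12 in BD_VNS against BD with 23 of 24 genes positive, beside a median of 0.03 and 62.5% positive over all genes. The part of the cell type changes given above in this shift was not tested. Tfrc, the transferrin receptor, was 0.49 higher in BD and 0.66 higher in BD_VNS than in NBD (limma, adjusted p = 0.0101 and 0.00173). Its second call held in all 20 alternative fits and its first was lost without NBD 3 or NBD 4 (up to 0.0574). Rrs1 and Bop1, factors of ribosome assembly, were 0.31 and 0.23 higher in BD_VNS than in BD (limma, adjusted p = 0.0166 and 0.0408). Both were lost with the end ratio in the model. Rrs1 also lost its call without BD 6 (up to 0.0618), and Bop1 held in 7 of 20 alternative fits and was lost without BD 4 and BD 6 and without BD_VNS 2, BD_VNS 3, BD_VNS 4, BD 1, BD 3, BD 6 or any NBD array (up to 0.204). In BD_VNS against NBD, Rrs1 (0.24; limma, adjusted p = 0.0466) and the one-carbon enzyme gene Shmt1 (0.18, 0.0467) also passed, and they held in 9 and 5 of 20 alternative fits (up to 0.345 and 0.139). Both were lost with the end ratio in the model and without BD_VNS 3, BD_VNS 4, BD 3, BD 6, NBD 1 or NBD 3, Rrs1 also without BD_VNS 1 or BD 1, and Shmt1 also without BD_VNS 2, BD 4, NBD 4 or BD 4 and BD 6 together.

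Of 22 genes of cell proliferation, 0 passed in BD against NBD, where 1 had an unadjusted limma p under 0.05, 3 rose in BD_VNS against BD and 4 rose in BD_VNS against NBD. In BD_VNS against BD all 22 differences were positive, with a median of 0.14, and 13 had an unadjusted limma p under 0.05. Over all genes in that comparison 62.5% were positive, the median was 0.03, 22.6% had an unadjusted p under 0.05 and 1.9% rose. With the end ratio in the model 2 of the 22 rose in BD_VNS over BD and 1 rose in BD_VNS over NBD. The array means of this list were 8.81 to 8.93 in BD_VNS, 8.63 to 8.82 in BD and 8.66 to 8.77 in NBD, so BD_VNS and BD overlapped and BD_VNS and NBD did not. Ccne2 and Ccne1, which encode the E-type cyclins of DNA replication, were 0.26 and 0.21 higher in BD_VNS than in BD (limma, adjusted p = 0.0224 and 0.031), and the replicative helicase subunit gene Mcm6 was 0.37 higher (adjusted p = 0.0427). Without BD 4 and BD 6, 0 of the 22 passed in this comparison, with a median of 0.10, and none of these 3 calls survived the loss of BD_VNS 3, BD 4 or BD 6 either (adjusted p up to 0.166, 0.185 and 0.227). Ccne2 was also lost with the end ratio in the model and without BD_VNS 4, Ccne1 without BD_VNS 1 or BD 3, and Mcm6 without BD_VNS 2, BD_VNS 4, BD 3 or any NBD array. In BD_VNS against NBD, Kif20a, a kinesin of cell division, was 0.25 higher, the DNA clamp gene Pcna 0.27 higher and Ccne2 0.24 higher (limma, adjusted p = 0.00812, 0.0229 and 0.0317). Kif20a was lost with the end ratio in the model (up to 0.0853) and kept its call with each array left out, Pcna was lost without BD_VNS 1 or any NBD array (up to 0.0965) and Ccne2 with the end ratio in the model and without BD_VNS 3, BD_VNS 4 or any NBD array (up to 0.223). In BD against NBD the smallest p of the list was that of Kif20a (0.16; limma, adjusted p = 0.0816). Cell type markers also differed in the comparisons with BD_VNS, as given above, and their part in the proliferation results was not tested.

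Among 38 Notch, BMP and EGF signals of the crypt, 1 fell in BD against NBD, 1 rose and 2 fell in BD_VNS against BD, and 2 rose and 1 fell in BD_VNS against NBD. Jag1, a Notch ligand, was 0.27 ± 0.04 higher in BD_VNS than in BD and 0.33 ± 0.04 higher than in NBD (SE; limma, adjusted p = 0.00618 and 0.00117). The second of these held in all 20 alternative fits, and the first was lost without BD 4 and BD 6 (adjusted p up to 0.052). The BMP ligand genes Bmp5 and Bmp4 each fell by 0.31 in BD_VNS against BD (limma, adjusted p = 0.0151 and 0.0281), where Bmp5 was lost without BD 4 and BD 6 (up to 0.0614) and Bmp4 without BD_VNS 1, BD_VNS 4, BD 1, BD 3 or BD 6 (up to 0.0873). Bmp5 fell by 0.39 in BD_VNS against NBD (limma, adjusted p = 0.00398), lost with the ratio as a covariate (up to 0.0637). The fibroblast and pericryptal stroma markers were lower in BD_VNS as given above, and their part in the Bmp5 and Bmp4 results was not tested. The signal transducer gene Smad4 fell by 0.20 in BD against NBD (limma, adjusted p = 0.0463) and held in 6 of 20 alternative fits, lost with the end ratio in the model, without BD 4 and BD 6, and without any 1 array other than BD_VNS 2 and BD 1 (up to 0.22). The BMP antagonist gene Nog was 0.19 higher in BD_VNS than in NBD (limma, adjusted p = 0.0436) and held in 4 of 18 alternative fits, lost with the end ratio in the model, without BD 4 and BD 6, and without BD_VNS 3, BD_VNS 4, BD 1, BD 3, BD 6 or any NBD array (up to 0.198).

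For each member that passed, the named genes most like it over the 11 arrays were listed by Pearson correlation of log2 levels, as a description in which the arrays share their groups. Ascl2 was most like Kcne3 (r = 0.961), Tesk2 (0.959) and Asic2 (0.953). Efna1 was most like Tspan3 (r = 0.97), Alcam (0.969) and Tmub2 (0.963), of which Alcam, a cell adhesion molecule, differed by 0.40 in BD against NBD and 0.47 in BD_VNS against NBD. Axin2 was most like Cog8 (r = 0.939), Mon1b (0.935) and Srcap (0.928), which differed from BD in BD_VNS by 0.13, 0.08 and 0.13. Ephb2 was most like Glra2 (r = 0.958), Kdf1 (0.934) and Erlin1 (0.928), with differences of 0.08, 0.19 and 0.17 in BD_VNS against BD.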

How the data were processed

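Total RNA from rat small intestine was labelled as biotinylated cRNA for an Affymetrix array, per the labels' protocols. The deposited table holds log2 values that the authors had normalized. Their software was not given in the sources used here, and the log2 scale was read from the range of the values. Each probe set stands for 1 Entrez number. Of 11484 probe sets, 57 were controls, and the other 11427 entered every test whatever their level. Symbols were available for 11018, and 10996 matched the RefSeq table of GRCr8 by Entrez number, with 0 symbols changed.

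One limma model (version 3.58.1, R 4.3.3, lmFit then eBayes) held all 3 groups. P values were adjusted by Benjamini and Hochberg over the 11427, and "passed" means below 0.05 after adjustment. The members and the lists (12 of pathway genes, with 219 of 319 genes measured, and 10 of cell types) were chosen with earlier results of these data known. All members were named, and from each pathway list up to 3 passing genes of smallest p per comparison, or the 1 of smallest p where none passed. The model code was run on simulated independent values with known shifts, which checks the code and not how well the model suits these samples. The alternatives changed the variance model (trend, robust), the scaling (quantile, or each array's median), the probe sets kept (without the lowest 25% or 50%), the arrays (2 groups alone, no BD 4 and BD 6, each array left out) and the model terms (a replicate block, the 3' over 5' ratio). The number of arrays limits precision.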

Additional observations from a re-analysis of the deposited data

Results flagged for a closer look

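In 4 of the 94 gene and group pairs searched, 1 array stood far from the others of its group, by a gap that chance gives in about 1 in 20 groups. Ephb2 in BD_VNS 3 was at 7.55, below the other stimulated arrays at 7.67 to 7.69. Kcne3 in BD 3 was at 9.86, above the other BD arrays, which were all at 9.77. Mycbp2 in BD_VNS 2 was at 8.76, below the other stimulated arrays at 8.93 to 8.95, and Tfrc in BD_VNS 1 was at 10.73, above the other stimulated arrays at 10.45 to 10.49.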

How the results depend on the processing

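The calls of Ascl2 and Efna1 in BD against NBD held in every alternative run that kept the probe set. The number of members passing in BD against NBD was 2, and 1 with the lowest 50% of probe sets left out, where Ascl2 was not tested. In BD_VNS against BD it was 2, and 1 with that filter, where Ephb2 was not tested. It was 1 with the replicate block, 1 without BD 4 and BD 6, 0 with the 2 groups alone and 0 with the ratio as a covariate, and 0 to 2 with each array left out. In BD_VNS against NBD it was 3, and 1 with the filter, where Ascl2 and Ephb2 were not tested. It was also 1 with the 2 groups alone, with the replicate block and without BD 4 and BD 6, 0 with the covariate, and 1 to 6 with each array left out. Of all genes, 655 passed in BD against NBD, 363 with the replicate block, 293 without BD 4 and BD 6, and 317 (without NBD 3) to 882 with each array left out. In BD_VNS against BD 635 passed, 343 with the 2 groups alone, 402 with the replicate block, 415 with the covariate, 152 without BD 4 and BD 6, and 279 (without BD_VNS 4) to 1108 (without BD_VNS 2) with each array left out. In BD_VNS against NBD 965 passed, 363 with the covariate, and 494 (without NBD 1) to 1638 (without BD_VNS 2) with each array left out. Some calls ended with another scaling or variance model. Quantile scaling ended Fzd1 in BD against NBD, Bcl9l in BD_VNS against BD, and Ascl2, Dkk2, Rrs1 and Nog in BD_VNS against NBD. Median centring ended Fzd1 and Dact1 in BD against NBD and Wnt16 in BD_VNS against BD. It also ended Ephb2, Dkk2, Tle5, Shmt1 and Nog in BD_VNS against NBD. Trend and robust variance ended Smad4 in BD against NBD, Crebbp and Huwe1 in BD_VNS against BD, and Tle5 and Shmt1 in BD_VNS against NBD. Directions turned only for differences that had not passed. In BD against NBD, Myc was -0.05 under the covariate, -0.07 with BD 4 and BD 6 removed, -0.06 without BD 4 and -0.01 without NBD 3 (up to 0.08 with 1 array left out), Ephb2 was 0.01 without NBD 3, and Ctnnb1 reached 0.01 under the covariate and 0.04 with BD 4 and BD 6 removed. In BD_VNS against BD, Ephb3 was -0.02 with the replicate block, -0.01 without BD_VNS 2, 0.00 without BD_VNS 3 and -0.02 without BD 1 (up to 0.05 with 1 array left out), Efna1 was -0.13 with the covariate and -0.02 without BD_VNS 4 (up to 0.3), and with the covariate Tcf7l2 was -0.03 and Ctnnb1 0.03. In BD_VNS against NBD, Ctnnb1 was 0.04 with the covariate. The cause of these shifts was not tested. Replicate numbers did not pair the arrays: 0 of 9 same-numbered pairs had a correlation of deviations over 0.1 (-0.24 to 0.07). In 1 of these 9 pairs the first array correlated best with the array of its own number. Single results of the block, over the 9 arrays numbered 1, 3 and 4, are therefore given only in this section. The block is still among the alternative fits behind the counts and adjusted p ranges given earlier. Signal over background could not be judged, since no detection calls were given.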
